A study of Bos taurus with 12 samples.

Results

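The interferon-stimulated genes ISG15, MX1, MX2, RSAD2, IFI6, IFI44, IFIH1, IRF7 and USP18 were followed in the liver of newborn Holstein calves. These 9 genes were taken as a list of symbols out of 30336 gene IDs counted, and all 9 were matched to an ID and passed the filter on low counts. Their mRNA differed between calves of the same diet group by 4.72- to 109-fold, the 9 genes went up and down together from calf to calf, and in no gene did the maternal diets differ beyond that spread.

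Per the study's methods, liver was taken by biopsy from 12 heifer calves at 4 d of age. In the CON group, 6 calves were born to cows on a control close-up diet without added methionine, and in the MET group 6 calves were born to cows that received the same diet with ethyl-cellulose rumen-protected methionine (Mepron) over the last 28 d before calving. Each calf received colostrum of its own dam, and so of a cow on the diet of its group, and then milk replacer, and all were vaccinated through the nostril at birth and stayed clinically healthy. The question was whether the supply of methionine to the dam in late gestation altered the liver of the calf, and the supplement was given to the dams.

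Stranded mRNA libraries were read on 1 lane, with 8277789 to 10397604 reads counted to genes per library, so that 3 reads, the floor used here, equalled 0.276 to 0.376 CPM (counts scaled to a common library total). The libraries of CON replicates 1 and 4 differed little beyond counting noise (chi-square per gene 1.33), as did those of MET replicates 1 and 3 (1.24), whereas the other 64 pairs of libraries had values of 25.1 to 132.9. Both were therefore merged into single samples, called CON 1+4 and MET 1+3, which left 10 samples with 5 per diet. The labels do not say that the 12 libraries came from 12 separate biopsies, so p-values measure the spread between these samples. CON and MET libraries carried different first index sequences, so an effect of index cannot be told apart from one of diet. The 6 hepatocyte markers summed to 132100 to 178700 CPM in CON and 108500 to 141900 in MET. Albumin (ALB) was at 39056 to 72094 CPM in CON and 30358 to 51231 in MET. None of the 6 markers passed an FDR of 0.10 between the diets over the 12 libraries.

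Interferons are secreted proteins that cells release when a virus is sensed. They bind receptors on neighbouring cells, the JAK kinases on these receptors phosphorylate STAT proteins, and these join IRF9 to switch on a shared set of interferon-stimulated genes. Hepatocytes carry the receptors and respond along with the macrophages and endothelial cells of the liver, and since the tissue was measured in bulk, fewer cells of a type and less RNA per cell cannot be told apart.

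The 9 genes have different places in this response. MX1 and MX2 are dynamin-like GTPases that trap viral particles, RSAD2 (viperin) makes a nucleotide that stops viral polymerases, and IFI6 and IFI44 are further induced proteins with antiviral activity. ISG15 is a ubiquitin-like protein that is joined to other proteins, and USP18 removes it again and also blocks signaling at the interferon receptor. IFIH1 (MDA5) senses double-stranded RNA, and IRF7 is the transcription factor that carries the induction of interferon genes further.

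On the assembly used by the study (UMD 3.1.1), MX2 (chromosome 1, 143119210 to 143156317, plus strand) and MX1 (chromosome 1, 143166727 to 143204868, plus strand) were neighbours with 10409 bases between them. IFIH1 (chromosome 2, 34216830 to 34272536) and IFI6 (chromosome 2, 126246507 to 126250183) shared a chromosome but were far apart. ISG15 lay on chromosome 16 (52714627 to 52715654), RSAD2 on chromosome 11 (90012623 to 90029927), IFI44 on chromosome 3 (66277615 to 66297704), IRF7 on chromosome 29 (50903673 to 50906833) and USP18 on chromosome 5 (76388593 to 76404941). The counts cover the exons of each gene, and no exon of the 9 overlapped an exon of another gene.

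Per kilobase of exon, IFI6 had the highest median level (811 CPM per kb), followed by ISG15 (310.3), MX1 (78.5), IFI44 (34.1), USP18 (17.2), IRF7 (15.5), IFIH1 (7.35), RSAD2 (3.73) and MX2 (2.61). IFI6 was above ISG15 in 8 of 10 samples, and the difference in log2 CPM per kb (0.89 ± 1.17, SD) was smaller than its spread. The same held for IFI44 over USP18 (0.41 ± 0.75), USP18 over IRF7 (0.05 ± 0.69) and RSAD2 over MX2 (0.59 ± 0.95). The other neighbours in the order kept it in all 10 samples, with ISG15 above MX1 by 1.42 ± 0.65 and MX1 above IFI44 by 1.69 ± 0.73 on the log2 scale.

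Among the antiviral effectors, MX1 had 719 CPM in CON 1+4, 37.7 in CON 2, 63.8 in CON 3, 131 in CON 5 and 1430 in CON 6. In the MET calves it had 657 CPM in MET 1+3, 194 in MET 2, 297 in MET 4, 608 in MET 5 and 32.1 in MET 6. The groups overlapped throughout, with the lowest calf in MET and the highest in CON, 44.6-fold apart. MX2, the neighbouring gene, had 31.0, 2.26, 10.3, 2.08 and 98.4 CPM in the CON samples in the same order. It had 43.7, 5.06, 20.5, 12.2 and 0.720 CPM in the MET samples. MX2 thus had the same highest and lowest calf as MX1 and the widest range of the 9 genes (137-fold), although its lowest value rested on 7 reads.

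RSAD2 was at 25.8, 1.38, 9.23, 4.57 and 54.8 CPM in CON 1+4, CON 2, CON 3, CON 5 and CON 6. It was at 20.2, 4.96, 9.99, 9.93 and 2.57 CPM in MET 1+3, MET 2, MET 4, MET 5 and MET 6. Here the lowest calf was CON 2 (11 reads) and the highest again CON 6, so that the CON samples spanned 39.8-fold and enclosed all MET samples. IFI6 was at 1505, 30.6, 56.3, 760.3 and 900.4 CPM in the CON samples. It was at 1349, 491, 1313, 791 and 12.3 CPM in the MET samples. In IFI6, 7 of the 10 samples were at 491 CPM or more and the other 3 (CON 2, CON 3 and MET 6) at 56.3 CPM or less. IFI44 was at 154, 7.90, 14.3, 40.2 and 89.4 CPM in the CON samples. It was at 158, 29.9, 112, 107 and 3.80 CPM in the MET samples, with the highest value in MET 1+3 and the lowest in MET 6, 41.6-fold apart.

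For the ISG15 system, ISG15 itself had 401 CPM in CON 1+4, 12.4 in CON 2, 23.8 in CON 3, 41.7 in CON 5 and 587 in CON 6. It had 654 CPM in MET 1+3, 97.0 in MET 2, 362 in MET 4, 269.7 in MET 5 and 14.4 in MET 6. Each diet held calves at both ends, and the range within CON (47.3-fold) and within MET (45.4-fold) was of one size. USP18, its protease, had 35.9, 5.51, 6.27, 13.3 and 74.1 CPM in the CON samples. It had 41.2, 11.2, 19.7, 30.02 and 2.57 CPM in the MET samples, with the highest and lowest calf of MX1.

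The sensor IFIH1 had 53.6, 8.15, 16.4, 15.6 and 99.3 CPM in the CON samples. It had 51.5, 19.96, 35.0, 42.6 and 7.91 CPM in the MET samples. The transcription factor IRF7 had 70.1, 12.3, 15.5, 14.3 and 118 CPM in the CON samples and 87.4, 23.1, 44.5, 56.0 and 18.5 CPM in the MET samples. These genes had the narrowest ranges of the 9 (12.5-fold for IFIH1 and 9.58-fold for IRF7), and IRF7 was the only member for which all 5 MET samples lay above the CON median, although CON 6 exceeded all 5 of them and CON 1+4 exceeded 4.

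**Figure D1:**
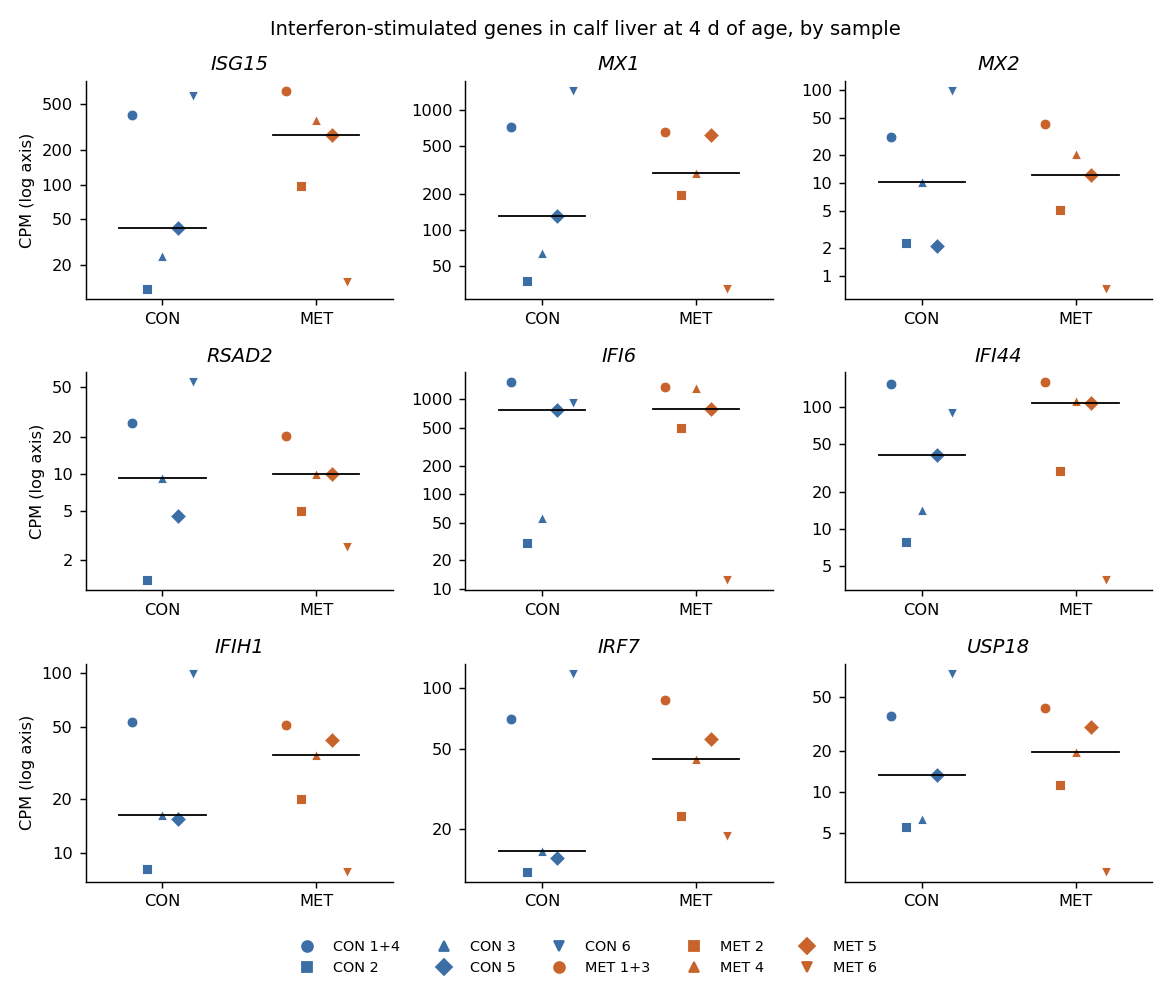
CPM (log axis, a scale of its own in each panel) of the 9 interferon-stimulated genes in the 5 CON and 5 MET samples, where each symbol is a sample and the bar is the median of the diet. CON 1+4 and MET 1+3 are among the 3 highest samples in all 9 panels and CON 6 in 7, and among the 3 lowest are CON 2 in all 9 and MET 6 in 8.

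Ordered by the mean deviation of the 9 genes from their own means, the samples ran from MET 6 (-2.67 on the log2 scale) and CON 2 (-2.29) over CON 3 (-1.22), CON 5 (-0.69) and MET 2 (-0.37) to MET 4 (0.89), MET 5 (0.92), CON 1+4 (1.57), MET 1+3 (1.69) and CON 6 (2.17). Calves of both diets stood at each end of this order. The lowest value of a gene was in MET 6 for 6 genes and in CON 2 for 3, and the highest was in CON 6 for 6, in MET 1+3 for 2 and in CON 1+4 for 1. CON 1+4 and MET 1+3 were among the 3 highest samples for all 9 genes, and CON 2 was among the 3 lowest for all 9. Counted as a share of all reads, the 9 genes took 0.358% of the counted reads in CON 6 (Wilson 95% interval 0.354 to 0.362) and 0.00945% in MET 6 (0.00886 to 0.0101), a 37.9-fold difference. These intervals and the floors cover counting error only.

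The spread between calves of the same diet was wider for these genes than for most of the transcriptome. The SD of log2 CPM within a diet was 1.24 (IRF7) to 2.70 (IFI6) with a median of 1.99, against a median of 0.290 over the 13242 genes tested in the 10 samples. For this SD the 9 genes lay at percentiles 98.8 to 99.9 of all genes tested. Between the lowest and the highest sample the 9 genes moved by 3.24 to 6.91 log2 units (median 5.32), against a median of 0.980 over all genes, and 331 of 13242 genes had a range at least as wide as the narrowest of the 9. ISG15, IFI6 and MX1 combined this spread with high counts, since their lowest library still held 99, 120 and 301 reads.

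**Figure D2:**
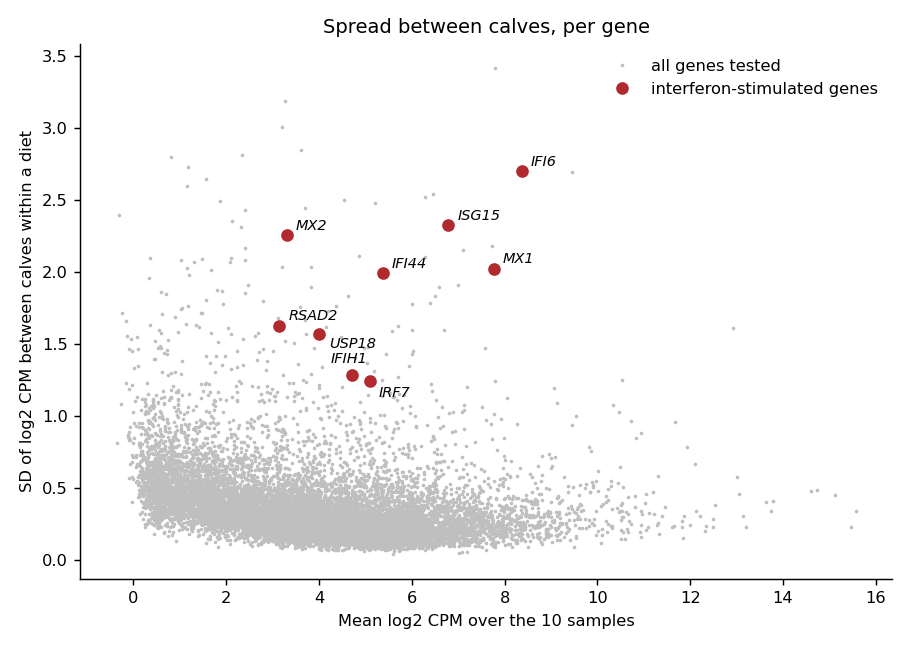
SD of log2 CPM between calves of the same diet (vertical axis, log2 units) against mean log2 CPM over the 10 samples (horizontal axis) for each gene tested, with the 9 interferon-stimulated genes as large points. The 9 genes lie between 1.24 and 2.70, above most genes tested, whose median is 0.290.

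Whether the dam's diet altered these genes was tested with edgeR's quasi-likelihood test across all genes. None of the 9 genes passed an FDR of 0.10, over the 12 libraries or over the 10 samples, where 4.41% (583 of 13212, 2.09% higher and 2.32% lower in MET) and 0% (0 of 13242) of all genes did. None had an unadjusted p under 0.05 in either fit, where 20.5% and 16.3% of all genes had, and none was called by DESeq2 or by voom of limma. In the 10 samples DESeq2 called 639 genes, none of them a member, where edgeR called 0. No member had groups that did not overlap, as 3.72% of all genes had.

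The point estimates had no common direction. Over the 10 samples the log2 fold change of MET over CON was above 0 for ISG15, IFI6 and IFI44 and below 0 for the other 6 genes (median -0.30, against -0.0028 over all genes, of which 49.5% were above 0). Over the 12 libraries 4 genes were above 0 and 5 below (median -0.23, against -0.0031). The centre used decided the side: the mean CPM was higher in MET for 3 of 9 genes, the mean log2 CPM for 6 and the median CPM for 9, where 50.2% of all genes had a higher median in MET. Since the 9 genes moved together in the same calves, these counts are those of the order of 10 samples rather than 9 separate observations. CON 6, with the highest value in 6 genes, carried the mean of CON. In the fit over the libraries, with no pair merged, leaving it out turned 4 log2 fold changes above 0. These were MX1 (0.29), MX2 (0.46), IFIH1 (0.24) and USP18 (0.33).

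The largest difference over the 10 samples was that of RSAD2, with 19.2 ± 22.0 CPM in CON and 9.54 ± 6.78 in MET (SD, n = 5 each). Its log2 fold change was -0.99 over the 10 samples (95% interval -2.65 to 0.68, edgeR adjusted p = 0.552) and -0.84 over the 12 libraries (adjusted p = 0.504). CON 6 decided this rank, since without it the value for RSAD2 over the libraries was -0.24 and ISG15 was largest with 0.96, and ISG15 was also largest with voom (0.95, against -0.37 for RSAD2) and with the replicate number as a block (1.40, against -0.31). MX2 had 28.8 ± 40.6 CPM in CON and 16.4 ± 17.0 in MET, a log2 fold change of -0.79 over the 10 samples (-2.97 to 1.40, edgeR adjusted p = 0.733). In both genes the SD of CON exceeded its mean, and the exact two-sided permutation test on log2 CPM gave p = 0.738 for RSAD2 and p = 0.817 for MX2, where 5 against 5 samples allow no p below 0.00794.

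ISG15 averaged 213 ± 265 CPM in CON and 279 ± 250 in MET (SD, n = 5 each), a log2 fold change of 0.39 over the 10 samples (-1.89 to 2.67, edgeR adjusted p = 0.887). MX1 averaged 476 ± 602 and 358 ± 269 CPM, a log2 fold change of -0.41 (-2.46 to 1.64, edgeR adjusted p = 0.864). IFI6 averaged 650.5 ± 621 and 791 ± 566 CPM, a log2 fold change of 0.28 (-1.97 to 2.54, edgeR adjusted p = 0.920). In these abundant genes the interval thus reached from a several-fold lower to a several-fold higher level in MET, and for ISG15 it ran from 0.271 to 6.34 times the CON level.

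IFI44 averaged 61.2 ± 61.2 CPM in CON and 82.2 ± 63.6 in MET, a log2 fold change of 0.42 (-1.44 to 2.28, edgeR adjusted p = 0.844). IFIH1 averaged 38.6 ± 38.3 and 31.4 ± 17.5 CPM, a log2 fold change of -0.30 (-1.68 to 1.08, edgeR adjusted p = 0.853). USP18 averaged 27.0 ± 29.04 and 21.0 ± 15.2 CPM, a log2 fold change of -0.36 (-1.97 to 1.25, edgeR adjusted p = 0.845). IRF7 had nearly the same mean in both diets, with 46.0 ± 46.9 CPM in CON and 45.9 ± 27.8 in MET (log2 fold change -0.0030, -1.40 to 1.39, edgeR adjusted p = 0.999). The exact permutation p of the 7 genes other than RSAD2 and MX2 was between 0.5 (ISG15) and 0.984 (IFIH1). The exact test compares mean log2 CPM, not the edgeR estimate. That mean was higher in MET for MX1 (7.89 against 7.65), IFIH1 (4.72 against 4.69) and IRF7 (5.30 against 4.90). The edgeR estimates of these genes were below 0. With standard errors of 0.63 to 1.05 log2 units, against a median of 0.18 over all genes, a difference short of several-fold was not detectable in these 9 genes with 5 samples per diet.

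**Figure D3:**
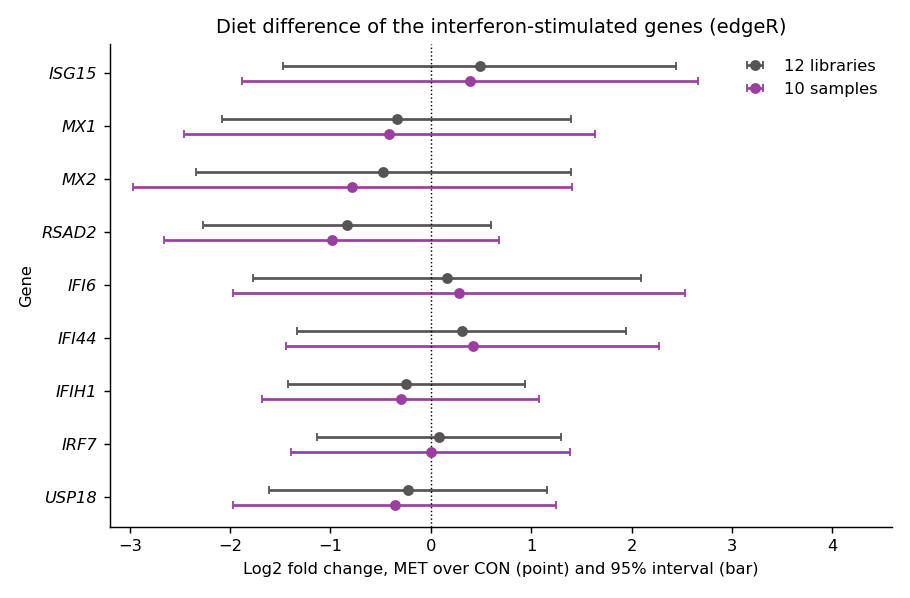
Log2 fold change of MET over CON (points) with its 95% interval (bars) from edgeR's quasi-likelihood test for each of the 9 genes, over the 12 libraries (grey) and over the 10 samples (purple). Each interval includes 0, and over the 10 samples the points run from -0.99 (RSAD2) to 0.42 (IFI44).

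The genes moved together across the 10 samples. Over the 36 pairs of members, Pearson's r of log2 CPM was 0.71 to 0.98 (median 0.90) and Spearman's rho 0.75 to 0.99 (median 0.91), and the permutation p adjusted over the 36 pairs was at most 0.0245 for r and 0.0180 for rho. The relation held within the diets, since r between deviations from the diet means was 0.71 to 0.99 (median 0.93) in the 36 pairs. After the 2 samples farthest from the median of the first gene of a pair were left out, r was 0.57 to 0.98 over 8 samples (median 0.84), and the adjusted permutation p was at most 0.05 in 32 of 36 pairs. The 4 pairs that missed it all contained IFI6, paired with MX2 (r = 0.57 over 8 samples), IFIH1 (0.59), IRF7 (0.64) and RSAD2 (0.67), where r over the 10 samples had been 0.72, 0.83, 0.71 and 0.71.

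MX1 was most like IFIH1 and USP18 (r = 0.98 each), and IFIH1 had the highest median r with the other members (0.95). The lowest r were those of IFI6 with RSAD2 (0.71), IRF7 (0.71) and MX2 (0.72), whereas IFI6 and IFI44 had an r of 0.96. The ratio of reads of IFI6 to MX1 showed where the genes parted: it was 5.81 in CON 5, 4.43 in MET 4 and 2.53 in MET 2, but 0.630 in CON 6 and 0.385 in MET 6. In CON 5, IFI6 alone made up 74.3% of the reads of the 9 genes, and IFI6 stood 1.20 log2 units above its mean there while MX2 stood at -2.14 from its own. The ratio of MX1 to MX2, adjacent on chromosome 1, also varied, from 6.22 in CON 3 to 63.0 in CON 5.

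**Figure D4:**
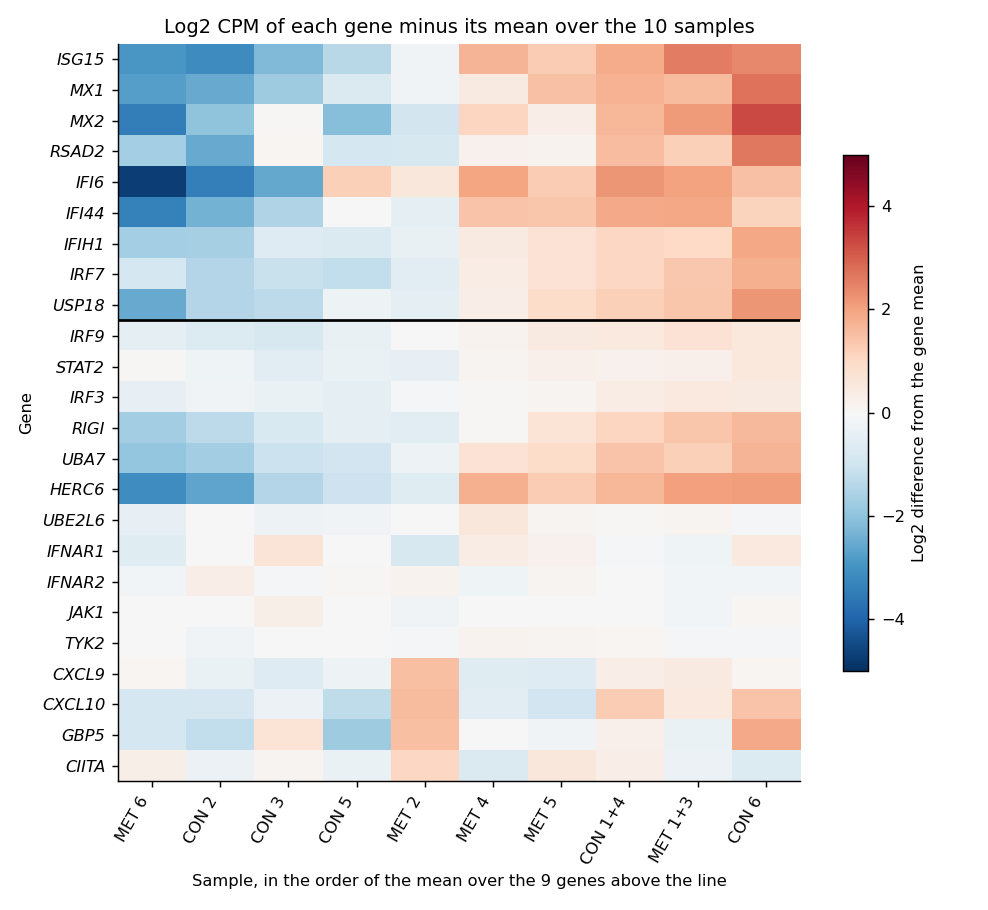
Log2 CPM of each gene minus its mean over the 10 samples (colour, log2 units), with the samples in the order of the mean over the 9 interferon-stimulated genes above the line and 15 pathway genes, picked after their values were seen, below it. The 9 genes turn from low to high along the same order, as do RIGI, UBA7 and HERC6, whereas the receptor genes IFNAR1 and IFNAR2 and the kinases JAK1 and TYK2 stay near their means, and CXCL9, CXCL10 and CIITA are highest in MET 2.

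The rest of the pathway was followed with 8 lists of genes, chosen with earlier results of these data known. Of their 128 symbols, 112 were matched and 95 tested. Across the 12 libraries 1 of the 95 genes was called between the diets, and 5 of them had an unadjusted p under 0.05, against 4.41% and 20.5% of all genes. For likeness, the median r of a gene with the 9 members over the 10 samples was taken as a description. Over all genes tested this value had a median of 0.0023, 150 genes (1.13%) reached 0.8, and the 9 members themselves lay between 0.86 and 0.95.

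Of the interferon genes themselves, 12 of 18 symbols were matched and 11 had no counted read in any library. Interferon gamma (IFNG) had 3 reads in all, 1 each in 3 libraries. Several of these genes are closely related copies, and reads that matched more than a single place were not counted, so that the floor of 3 reads does not bound their level. Counted reads of the matched ligands were thus absent or near 0 in calves with high and with low levels of the 9 genes.

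The 9 receptor and JAK kinase genes were all present and varied little. Their highest and lowest samples were 1.28-fold (TYK2) to 2.75-fold (IFNAR1) apart, none was called between the diets (median log2 fold change -0.08), and their median r with the members was between -0.39 and 0.50, with 0 of 9 at 0.8. Both chains of the receptor for interferon alpha and beta were measured, IFNAR1 at 18.2 to 50.1 CPM and IFNAR2 at 62.7 to 92.9 CPM.

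Among the STAT and IRF transcription factors, 3 of 10 genes tested reached 0.8 and 0 were called (median log2 fold change 0.01). IRF9 (r = 0.90) and IRF3 (0.87) were among those that did, whereas STAT2 had 0.69. IRF9 had 89.0, 40.0, 36.7, 49.3 and 92.6 CPM in the CON samples and 104, 62.5, 72.7, 86.0 and 45.1 CPM in the MET samples, so that the calves with high levels of the members were again high, but only 2.85-fold lay between the lowest and the highest sample.

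Of 15 sensor and adaptor genes tested, 4 reached 0.8 and 0 were called (median log2 fold change 0.02). These 4 were the sensors ZBP1 (r = 0.95), RIGI (0.94), DHX58 (0.93) and CGAS (0.80), the first of which had 23.2-fold between its lowest and highest samples and RIGI 10.4-fold. The adaptors and kinases that carry the signal on were less like the members, from MYD88 (r = 0.64) over MAVS (0.45) and STING1 (0.28) to TBK1 (-0.24). TBK1 varied 1.24-fold.

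The list of other antiviral effectors was most like the members. Of its 39 genes tested, 33 reached 0.8 (median r = 0.91), among them PML (0.95), RTP4 (0.95), PARP9 (0.95), IFI44L (0.95) and OAS1Y (0.94). None was called between the diets (median log2 fold change 0.0031), and LGALS3BP, a secreted glycoprotein, was the only gene with an unadjusted p under 0.05, at 345 ± 77.8 CPM in CON and 427 ± 103 in MET (log2 fold change 0.42, edgeR adjusted p = 0.202). The range over samples was 1.75-fold (ZC3HAV1) to 58.9-fold (IFI27), in the 36 genes whose lowest sample was above the floor. IFITM1 and PLSCR1 had no read in any library. The OAS1 genes are closely related copies, and reads that matched several of them were not counted.

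Of the 5 genes that join ISG15 to proteins, 4 reached 0.8, namely the activating enzyme UBA7 (r = 0.95) and the ligases HERC6 (0.95), HERC5 (0.88) and TRIM25 (0.86). The conjugating enzyme UBE2L6 did not (0.48) and varied 1.98-fold, against 37.7-fold for HERC6. HERC6 had 247, 12.4, 28.2, 37.6 and 333 CPM in the CON samples and 319, 50.6, 265, 188 and 8.84 CPM in the MET samples, which differs from the order of ISG15 only by swaps of neighbouring samples. None of the 5 was called (median log2 fold change -0.10).

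The 10 negative regulators included the single gene called. RNF125, a ubiquitin ligase that marks RIG-I for degradation, had 39.6, 60.4, 62.9, 24.1 and 43.3 CPM in the CON samples and 29.9, 25.7, 24.9, 22.0 and 26.9 CPM in the MET samples. CON 5 lay within the MET samples and the other 4 CON samples lay above them. Its log2 fold change was -0.76 over the 12 libraries (edgeR adjusted p = 0.0729) but the call was lost over the 10 samples (-0.83, edgeR adjusted p = 0.175), and its median r with the members was -0.18. The phosphatase PTPN6 (log2 fold change 0.30, edgeR adjusted p = 0.127) and the SUMO ligase PIAS4 (-0.45, edgeR adjusted p = 0.178) had an unadjusted p under 0.05 only. TRIM38 reached 0.8 (r = 0.89), and NLRX1, a mitochondrial protein that dampens MAVS signaling, had the lowest value of any gene of the lists (-0.71).

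Of 9 interferon gamma responsive genes tested, 1 reached 0.8 (GBP4, r = 0.83) and 0 were called (median log2 fold change 0.08). The chemokine CXCL10 was highest in MET 2 (23.2 CPM), where the 9 members were in the middle of their order, and had 20.6 CPM in CON 6 and 18.4 in CON 1+4 but 10.5 in MET 1+3. CXCL9 had 3.60 CPM in MET 2 and 0.670 to 1.64 CPM in the other samples.

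**Figure D5:**
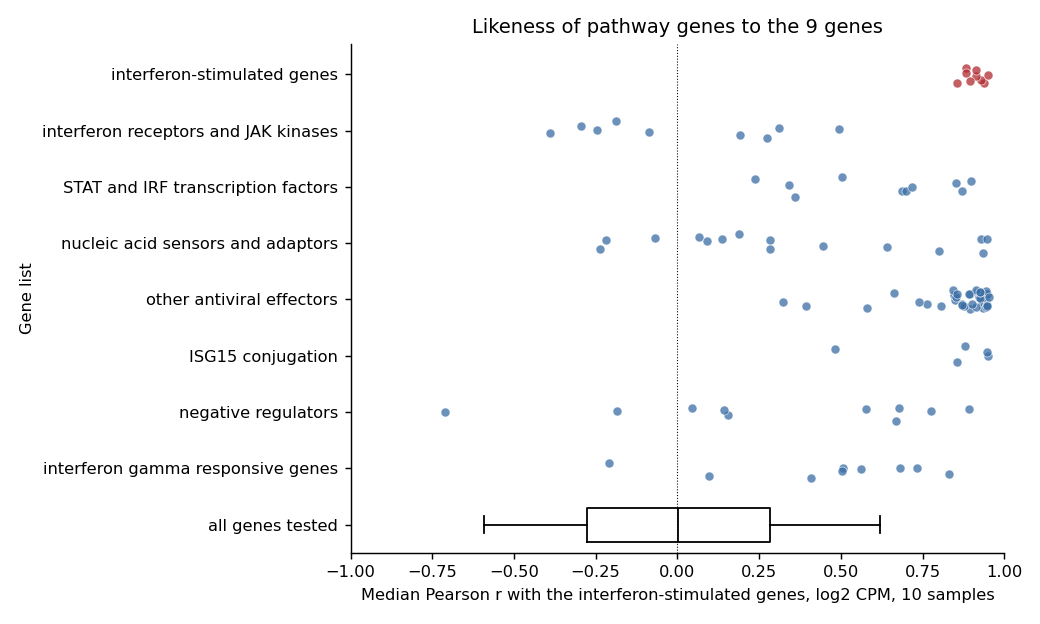
Median Pearson r of log2 CPM with the 9 interferon-stimulated genes over the 10 samples (horizontal axis) for each tested gene of the pathway lists (blue points), for the members themselves (red points) and for all genes tested (box from the lower to the upper quartile with the median, whiskers at the 5th and 95th percentiles). The antiviral effectors and the ISG15 conjugation genes lie mostly above 0.8, and the receptor and JAK kinase genes lie below 0.50.

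Outside the lists, the 5 genes most like the members by median r were LOC107131864 (0.96), LOC101907799 (0.96), ZNFX1 (0.95), LOC509283 (0.95) and LOC100298356 (0.94). ZNFX1 codes for a helicase-domain protein that binds double-stranded RNA, and the names of the other 4 give no function. ZNFX1 ranged from 17.2 CPM in MET 6 to 238 in CON 6, and LOC107131864 from 1.13 to 128 CPM in the same calves, 113-fold apart. Each of the 5 genes had an edgeR adjusted p of 0.768 or more for diet over the 12 libraries.

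For markers of other cells, the summed level of a list had a median r with the members of -0.47 to 0.27. The summed level of 10 macrophage markers was 1596 to 2087 CPM in CON and 2143 to 2507 in MET, with 3 of 10 called between the diets over the 12 libraries (4.41% of all genes) and 0 over the 10 samples, while its median r with the members was -0.36. Endothelial markers had a median r of -0.47 and summed to 239 to 401 CPM in CON and 217 to 342 in MET. Erythroid markers ranged from 8.77 to 1083 CPM in CON and from 65.8 to 589 in MET (r = -0.28), with HBE1 and HBE2 at 0. The lists for dendritic, T and NK, B and neutrophil cells, for stellate cells and for cholangiocytes had a median r of -0.06 to 0.27, and of these 1 of 6 stellate cell and fibroblast markers was called over the 12 libraries. The part of cell composition in the spread of the 9 genes was not tested.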

How the data were processed

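Liver mRNA was measured in 12 libraries (6 CON, 6 MET), from 12 calves per the study methods, and groups were taken from the sample labels. The authors trimmed the reads with Trimmomatic, aligned them with STAR 2.5.3a to UMD 3.1.1 and deposited raw counts per gene from featureCounts (Subread 1.5.2), counted by strand over exons. Reads with several matches or genes were left out. Gene IDs were paired with symbols by a RefSeq table of a later assembly (ARS-UCD2.0), in which 25105 of 30336 IDs were found. The members and the gene lists were chosen with earlier results of these data known.

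Counts were scaled with TMM and tested with edgeR 4.0.16 (R 4.3.3), by the quasi-likelihood test on diet alone after the default filter (minimum count 10, minimum total 15), with Benjamini-Hochberg adjustment over 13212 genes and a threshold of FDR 0.10. Log2 CPM used a prior count of 2. The 10 samples (13242 genes) had the reads of each near-identical library pair summed. Single genes were compared by exact permutation over 252 arrangements, and pairs of members by 100000 permutations (smallest p 1e-05). Members, genes called and up to 3 genes a list with unadjusted p under 0.05 were to be named, plus the 5 most alike outside the lists. Others were named after their values were seen. The diet test over 12 libraries was tried on simulated counts, by edgeR with and without the replicate block, DESeq2 and voom. Alternatives used DESeq2 1.42.0, limma 3.58.1, other normalizations and filters, and each library left out. No sequence was used here. Values of some genes that the naming rule chose are not reported here.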

Additional observations from a re-analysis of the deposited data

How the results depend on the processing

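Under each of the 23 alternatives, 0 of the 9 interferon-stimulated genes were called and 0 had an unadjusted p under 0.05 (lowest p 0.0898, RSAD2 without CON replicate 2, edgeR). ISG15, RSAD2 and IFI44 kept their sign throughout, but with a library left out they ranged over 0.18 to 0.96, -1.16 to -0.24 and 0.069 to 0.63, and ISG15 was 1.40 with the replicate block, while 21 of 207 log2 fold changes of members changed sign. With the replicate block MX1 became 0.59, MX2 0.29, IFIH1 0.16 and USP18 0.14. With voom MX1 became 0.19 and IFIH1 0.0012, and IRF7 became -0.0030 over the 10 samples with edgeR and -0.0015 with DESeq2 on the 10 samples, an alternative added after the data were seen. Leaving out each library gave -0.59 to 0.29 for MX1, -0.83 to 0.46 for MX2, -0.094 to 0.46 for IFI6, -0.46 to 0.24 for IFIH1, -0.13 to 0.54 for IRF7 and -0.45 to 0.33 for USP18. The count of all genes called (583) was 107 with library size only (71 higher and 36 lower in MET, against 276 and 307), 238 without a filter, 245 after a trend on gene length was removed, 1314 with DESeq2, 0 over the 10 samples (2165 with unadjusted p under 0.05) and 26 (without CON replicate 1) to 565 with a library left out. With the replicate block it was 6, but same-numbered samples shared only a number (r of their deviations -0.19 to 0.15). The causes were not tested. Depth limits the lowest values of MX2 and RSAD2, whose lowest libraries held 7 and 11 reads.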
